A study of Mus musculus with 51 samples.

Results

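The genes described are the subunits of the hypoxia-inducible factors (HIF) and the enzymes and the ubiquitin ligase component that sense oxygen for them. All probe sets whose single gene symbol is Hif1a, Epas1, Hif3a, Arnt, Egln1, Egln2, Egln3, Vhl or Hif1an were taken, which gave 8 of the 9 genes, out of 12393 with a symbol of their own, and 16 of 22626 probe sets. Hif1an was not analysed here. Intensities came from 51 Affymetrix arrays of ventral prostate RNA of mice of the FVB strain, aged 8 to 10 weeks per the labels. Placebo was given to wild type mice (4 arrays after 12 h, 4 after 48 h, 3 after 15 d) and to mice with an AKT1 transgene (4, 5 and 7 arrays). Transgenic mice on RAD001 (everolimus, an inhibitor of the kinase mTOR) supplied 5, 4 and 6 arrays at these times. At 6 d and 9 d there was 1 transgenic placebo array each, with 3 and 4 RAD001 arrays and no wild type array. The sources used here give neither the transgene's promoter nor the dose of RAD001, and no wild type array with RAD001 was analysed. The labels call the arrays biological replicates without saying whether animals were pooled, so p-values measure the spread between these arrays.

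HIF is a pair of proteins. An oxygen-labile alpha subunit (HIF-1alpha from Hif1a, HIF-2alpha from Epas1 or HIF-3alpha from Hif3a) binds the stable partner ARNT, and the pair binds short DNA elements near genes of glycolysis, vessel growth and red cell formation. In normal oxygen the prolyl hydroxylases encoded by Egln1, Egln2 and Egln3 mark the alpha subunits, and VHL, the recognition part of a ubiquitin ligase, then sends them to the proteasome. Much of this control acts on the protein, which arrays do not measure. AKT and mTOR signalling are known to raise HIF-1alpha, partly through translation, and Egln1, Egln3 and Hif3a are themselves known HIF targets.

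The DNA just before the start is shown for the 4 genes with a probe set higher in transgenic than in wild type mice on average. Of the 8 genes on the array, 7 had an entry in RefSeq's promoter table (GRCm38.p6). Epas1 is named only. The 250 bases before each start were searched on both strands for ACGTG and GCGTG, the 2 forms of the core letters of a hypoxia response element. A run of CACGTG holds ACGTG on both strands. Sequences run 5′ to 3′ on the gene's strand, with matches in capitals.
Hif1a, chr12:73907617-73907866, plus strand: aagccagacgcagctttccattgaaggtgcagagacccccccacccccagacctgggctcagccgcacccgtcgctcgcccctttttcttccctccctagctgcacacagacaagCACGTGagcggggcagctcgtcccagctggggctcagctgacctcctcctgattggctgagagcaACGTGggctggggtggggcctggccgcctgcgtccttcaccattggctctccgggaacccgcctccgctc
Hif3a, chr7:17062428-17062677, minus strand: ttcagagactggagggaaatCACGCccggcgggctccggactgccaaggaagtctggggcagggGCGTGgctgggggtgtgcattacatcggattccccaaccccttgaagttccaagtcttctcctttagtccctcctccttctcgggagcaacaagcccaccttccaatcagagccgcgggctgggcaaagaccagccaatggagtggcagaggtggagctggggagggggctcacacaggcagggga
Egln1, chr8:124949255-124949504, minus strand: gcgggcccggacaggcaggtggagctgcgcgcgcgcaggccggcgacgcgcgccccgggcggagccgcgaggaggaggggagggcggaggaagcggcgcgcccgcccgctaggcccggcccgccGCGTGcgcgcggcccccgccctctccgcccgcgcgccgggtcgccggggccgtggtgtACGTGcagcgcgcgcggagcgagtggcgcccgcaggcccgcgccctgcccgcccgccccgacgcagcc
Egln3, chr12:54203875-54204124, minus strand: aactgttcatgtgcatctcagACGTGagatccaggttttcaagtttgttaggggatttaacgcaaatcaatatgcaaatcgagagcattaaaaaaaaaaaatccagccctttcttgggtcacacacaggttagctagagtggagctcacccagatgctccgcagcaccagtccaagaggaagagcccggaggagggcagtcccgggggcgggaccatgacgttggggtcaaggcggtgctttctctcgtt
Each of the 4 stretches held a match. In Hif1a, ACGTG began 134 and 70 bases before the start, the first within CACGTG. In Egln3 it began 229 bases and in Egln1 68 bases before the start, and Egln1 also held GCGTG 126 bases before it. Hif3a held GCGTG 186 bases before the start and its reverse complement CACGC 230 bases before. Stretches before Egln2 and Arnt held matches too, and that of Vhl held none. Of all 32851 promoter entries, 16.6% held ACGTG, 28.2% held GCGTG and 38.6% held either in a window of this length, so a match is common and describes letters only.

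The arrays fell into 2 tables of different Affymetrix platforms, 1 with the 42 arrays of 12 h, 48 h and 15 d and 1 with the 9 arrays of 6 d and 9 d. How each was scaled is not stated, and levels are not compared across them. After a filter on dim probe sets 13 member probe sets of all 8 genes were tested in the first table and 12 of 7 genes in the second, where Epas1 was too dim. Pbsn, a secretory gene of the prostate, had intensities from 1560 to 6710 in the first table and from 3370 to 5480 in the second. Of the 2 probe sets for Akt1, the dimmer was higher by 0.88 on the log2 scale (SE 0.23, limma adjusted p = 0.00289) in transgenic placebo mice, and the other differed by 0.17 (SE 0.079, adjusted p = 0.0936). The labels do not say which of them can read the transgene. Along the first principal component of the larger table the 15 d arrays split into 2 sets. Set A held all 3 wild type arrays, 2 transgenic placebo and 2 RAD001 arrays, and set B held 5 transgenic placebo and 4 RAD001 arrays. Wild type arrays of 48 h lay between -6.1 and 3.2 on that component, next to set A. Wild type and transgenic placebo arrays of 12 h lay between -30.1 and -16.4 and transgenic placebo arrays of 48 h between -28.5 and -14.9. The genotype difference at 48 h and the wild type differences between times therefore cannot be told apart from whatever sets these arrays apart.

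In transgenic prostates on placebo, probe sets of the subunits Hif1a and Hif3a and of the hydroxylases Egln1 and Egln3 were higher than in wild type, while 1 of Egln2 and 1 of Arnt were slightly lower. For Hif3a this holds for 1 of 3 tested probe sets (the others differed by -0.22 and -0.31, neither called) and for Egln1 for 1 of 2 (the other differed by 0.02). Averaged over 12 h, 48 h and 15 d, 7 of the 13 probe sets (6 genes) passed the threshold of 0.05 on limma's adjusted p, 5 higher and 2 lower. Over all 13574 probe sets tested 33.5% were called, 15.1% higher and 18.4% lower, so the count of members lies above that share by only a few probe sets. The median change of the 13 was 0.02 on the log2 scale against -0.04 over all probe sets tested. In whole tissue, more cells of a type and more RNA per cell cannot be told apart. In the same comparison 7 of 9 smooth muscle markers and 7 of 10 fibroblast markers were called lower, as were 4 of 7 basal epithelial markers (Trp63 -0.74, Krt5 -0.49), and 5 of 8 luminal epithelial markers were called higher. Among those not called, basal Itgb4 (0.73) and Dst (0.28) and fibroblast Col1a1 (0.81) and Mfap5 (0.003) were higher, and luminal Pbsn (-0.16) was lower. The summed intensity of the smooth muscle markers lay between 9670 and 14400 on wild type arrays and between 4880 and 8290 on transgenic placebo arrays, and that of the luminal markers between 11700 and 14900 against 14800 and 20300. None of these markers' part in the members' changes was tested.

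Hif1a, the best known alpha subunit, was read by 4 probe sets. At 12 h its brightest, 1427418_a_at, read 234, 318, 256 and 232 on the wild type placebo arrays and 542, 534, 544 and 609 on the transgenic placebo arrays. The groups stood well apart. At 48 h it read 302, 371, 275 and 312 in wild type and 434, 530, 415, 363 and 355 in transgenic mice, which overlap. At 15 d the wild type arrays read 350, 437 and 344, and the transgenic arrays ran from 636 over a median of 692 to 751, again with no overlap. The difference was 1.11 (SE 0.15) on the log2 scale at 12 h, 0.41 (SE 0.14) at 48 h and 0.88 (SE 0.14) at 15 d. Limma's adjusted p was 1.27e-06, 0.0295 and 9.25e-05, and that of the average, 0.80 (SE 0.083), was 2.19e-09. The call at 48 h was lost without wild type replicate 1, 3 or 4 or transgenic replicate 1 or 2 (adjusted p from 0.0524 to 0.1).

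The second probe set, 1416035_at, rose at 12 h and 15 d and fell at 48 h. It read 46.6, 45.2, 47.6 and 50 in wild type against 72.3, 91, 101.1 and 92.2 in transgenic mice at 12 h. At 48 h the order turned, with 89.6, 108.1, 118.3 and 92.7 in wild type and 82, 81.7, 76.9, 44.5 and 51.4 in transgenic mice. At 15 d wild type arrays read 97.9, 117.7 and 127.2 and transgenic arrays from 144 to 280 with a median of 209. The groups did not overlap at any of these times. The log2 differences were 0.90 (SE 0.22), -0.64 (SE 0.20) and 0.82 (SE 0.21), with limma adjusted p of 0.00231, 0.019 and 0.00587. Among wild type mice its level was lower on all 4 arrays of 12 h than on any array of 48 h or 15 d, and these arrays also lay apart on the first component. With the array set as a block the 15 d difference was 0.32 (adjusted p = 0.435). The averaged difference of 0.36 (SE 0.12, adjusted p = 0.0189) became 0.20 (adjusted p = 0.134). At 12 h the difference was 0.47 (adjusted p = 0.0666) with values floored at 64, which lifts all 4 wild type arrays to the floor. Without wild type replicate 1 of 15 d the adjusted p was 0.0619 at 15 d and 0.0511 for the average, and at 48 h it was 0.0507 to 0.0775 without wild type replicate 2 or 3 or transgenic replicate 4 or 5.

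The other Hif1a probe sets were below the filter in the larger table. 1448183_a_at had geometric means of 53.2 in wild type and 91.3 in transgenic mice at 12 h, with no overlap, and 1431981_at of 59.5 and 47.6. At 48 h the means were 50.6 and 68.5 for 1448183_a_at and 43.5 and 47.7 for 1431981_at. At 15 d they were 77.6 and 83.0, and 65.6 and 51.8. Ranges of both probe sets overlapped at 48 h and 15 d. In a fit without the filter their averaged genotype differences were 0.44 (SE 0.21, adjusted p = 0.141) and -0.18 (SE 0.13, adjusted p = 0.347).

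Hif3a gave the largest difference among the members. HIF-3alpha has several isoforms, and some of them act against the other alpha subunits. Its probe set 1425428_at read 131, 128, 163 and 115 in wild type and 410, 518, 472 and 355 in transgenic placebo mice at 12 h. At 48 h it read 142, 134, 148 and 149 against 400.5, 452, 416, 553 and 508. Every transgenic array of these times exceeded every wild type array by far. At 15 d the wild type arrays read 234, 201 and 147, and the transgenic arrays from 243 over 284 to 359, so that the groups only just did not overlap. Differences were 1.71 (SE 0.17) at 12 h, 1.70 (SE 0.16) at 48 h and 0.61 (SE 0.16) at 15 d. The average was 1.34 (SE 0.094, adjusted p = 3.89e-13), a 2.53-fold difference, and the test by time gave an adjusted p of 0.00195. At 15 d the adjusted p of 0.0077 became 0.12 without wild type replicate 3 and 0.0558 in a fit of the compared groups only.

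A second probe set of Hif3a did not follow the first. 1425429_s_at, designed from the same sequence record per the probe annotation, was lower in transgenic mice by 0.42 (SE 0.18, adjusted p = 0.0905) at 12 h, higher by 0.32 (SE 0.17, adjusted p = 0.167) at 48 h and lower by 0.56 (SE 0.18, adjusted p = 0.0211) at 15 d. Over the 9 group means of the larger table the 2 probe sets had a Pearson r of 0.043, and over the 42 arrays as deviations from their groups 0.455, both across arrays that share a scaling. The call at 15 d was lost within set A, where the difference was -0.17 (adjusted p = 0.822), and without wild type replicate 1 (0.226) or 3 (0.0579). The third probe set, 1421572_at, was listed at 0 on 3 arrays and was not called in any comparison of genotypes.

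Epas1, whose product HIF-2alpha is prominent in endothelial cells, differed by -0.13 (SE 0.079, adjusted p = 0.208) on average. It read 127 to 159 in wild type and 90.8 to 138 in transgenic mice at 12 h. At 48 h the transgenic arrays read 136 to 142, above the 94.4 to 127 of wild type. At 15 d the order was again 100.1 to 132 in wild type and 76.1 to 121 in transgenic mice, a difference of -0.39 (SE 0.14, adjusted p = 0.0406) that shrank to -0.15 (adjusted p = 0.807) within set A. It was also lost without wild type replicate 1 or 3 or transgenic replicate 4, 6 or 8 (0.0654 to 0.196). Of 10 endothelial markers 7 were below the filter, and Cdh5, a junction protein of vessel cells, was the only one called (0.94, SE 0.17). The other tested ones went the other way and were not called (Kdr -0.09, Flt1 -0.15).

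Arnt, the shared partner, was lower in transgenic mice at 12 h on probe set 1421721_a_at, with 117.8 to 141.1 against 163.3 to 216.2 in wild type and no overlap. That difference was -0.47 (SE 0.14, adjusted p = 0.0147), which was lost without wild type replicate 1 (0.0742) or transgenic replicate 4 (0.0509). The average of -0.20 (SE 0.079) had an adjusted p of 0.049, and 16 of 27 fits that left out 1 array lost it, arrays of every wild type and transgenic placebo group among them (0.0522 to 0.141). Probe set 1425064_at differed by -0.08 (SE 0.13).

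**Figure D1:**
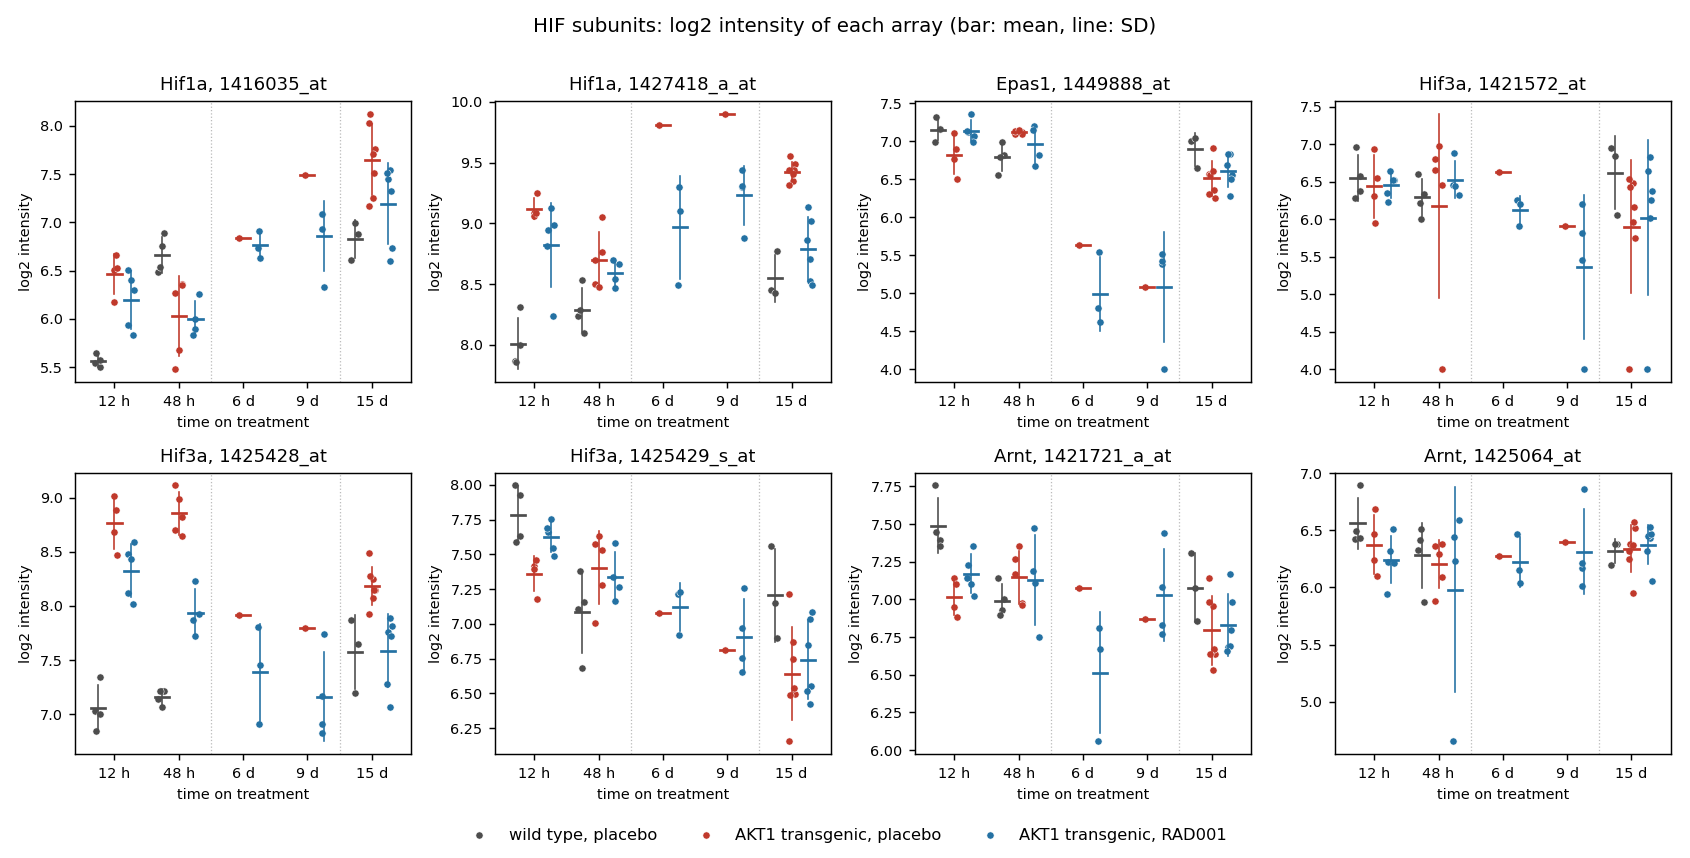
Log2 intensity (values under 16 set to 16) of each array for the 8 tested probe sets of HIF subunits by time on treatment. Points are arrays, bars group means and lines SD. Dotted lines separate 6 d and 9 d, which come from a separate table of another array platform. Hif1a 1427418_a_at and Hif3a 1425428_at are higher on transgenic placebo than on wild type arrays, while Hif3a 1425429_s_at is not.

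Of the prolyl hydroxylases, Egln1 encodes PHD2, the main one in normal oxygen. Its probe set 1451110_at read 85.5, 106.7, 115.5 and 121.1 in wild type and 190.7, 192.4, 198.7 and 186.9 in transgenic placebo mice at 12 h. At 48 h it read 124.2, 174.5, 143.8 and 131.1 against 207.1, 243.2, 201.1, 231.1 and 182.9. Neither time had an overlap. At 15 d the 3 wild type arrays read 189, 178.8 and 189.7, close to the lower end of the transgenic range of 186 to 253 (median 220). The differences of 0.85 (SE 0.12), 0.58 (SE 0.11) and 0.24 (SE 0.11) had limma adjusted p of 1.51e-06, 0.000181 and 0.127. Within wild type mice the level changed over time (adjusted p = 7.97e-05). The other Egln1 probe set, 1423785_at, had an averaged difference of 0.02 (SE 0.060, adjusted p = 0.834). It differed by -0.265 at 12 h (adjusted p = 0.074) and by 0.229 at 48 h (adjusted p = 0.0938), neither called. Its Pearson r with 1451110_at over the 9 group means was 0.028, although both come from the same sequence record per the probe annotation.

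Egln3 encodes PHD3, a hydroxylase that hypoxia is known to induce strongly. Probe set 1418649_at read 125.9, 108.5, 110.1 and 114 in wild type and 132.8, 168.6, 155.6 and 130.5 in transgenic mice at 12 h. At 48 h the wild type arrays read 120.1, 88.6, 124.7 and 106.7 and the transgenic arrays 151.9, 150.1, 190.2, 185.9 and 168.4. At 15 d wild type arrays read 132.5, 103.8 and 94.2 and transgenic arrays from 120 over 130 to 189. There was no overlap at 12 h and 48 h, and an overlap at 15 d. The differences were 0.35 (SE 0.14, adjusted p = 0.0772), 0.63 (SE 0.14, adjusted p = 0.000765) and 0.36 (SE 0.14, adjusted p = 0.0601), with an average of 0.45 (SE 0.080, adjusted p = 3.73e-05). The dimmer 1418648_at lay below the filter. At 15 d it read 20.1 to 34.3 in wild type and above that on 6 of 7 transgenic arrays, the other being listed at 0. In a fit without the filter that difference was 1.15 (SE 0.28, adjusted p = 0.00646). Ranges at 12 h were 24.2 to 34.3 in wild type and 30.7 to 40.4 in transgenic mice. The order turned at 48 h, with 31.7 to 51.5 in wild type and 28.8 to 45.3 in transgenic mice. There 4 of 5 transgenic arrays lay below the wild type mean. Its Pearson r with 1418649_at was 0.185 over the 9 group means and -0.328 within groups.

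Egln2, which encodes PHD1, went the other way at 12 h, with 656 to 955 in transgenic and 896 to 1374 in wild type mice and a small overlap. That difference was -0.54 (SE 0.13, adjusted p = 0.00199). At 48 h it was 0.16 (SE 0.12) and at 15 d -0.28 (SE 0.12, adjusted p = 0.103). The average of -0.22 (SE 0.072, adjusted p = 0.0158) was not called from 12 h and 48 h alone (-0.19, 0.0937), with the array set as a block (-0.18, 0.0633) or with set A alone (-0.15, 0.154). Vhl read 123 to 163 in transgenic and 90.6 to 122 in wild type mice at 48 h, a difference of 0.43 (SE 0.16, adjusted p = 0.0471) that was lost without wild type replicate 1, 2 or 4 or transgenic replicate 1, 2 or 5 (0.0533 to 0.151). Its averaged difference was 0.13 (SE 0.096, adjusted p = 0.315).

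**Figure D2:**
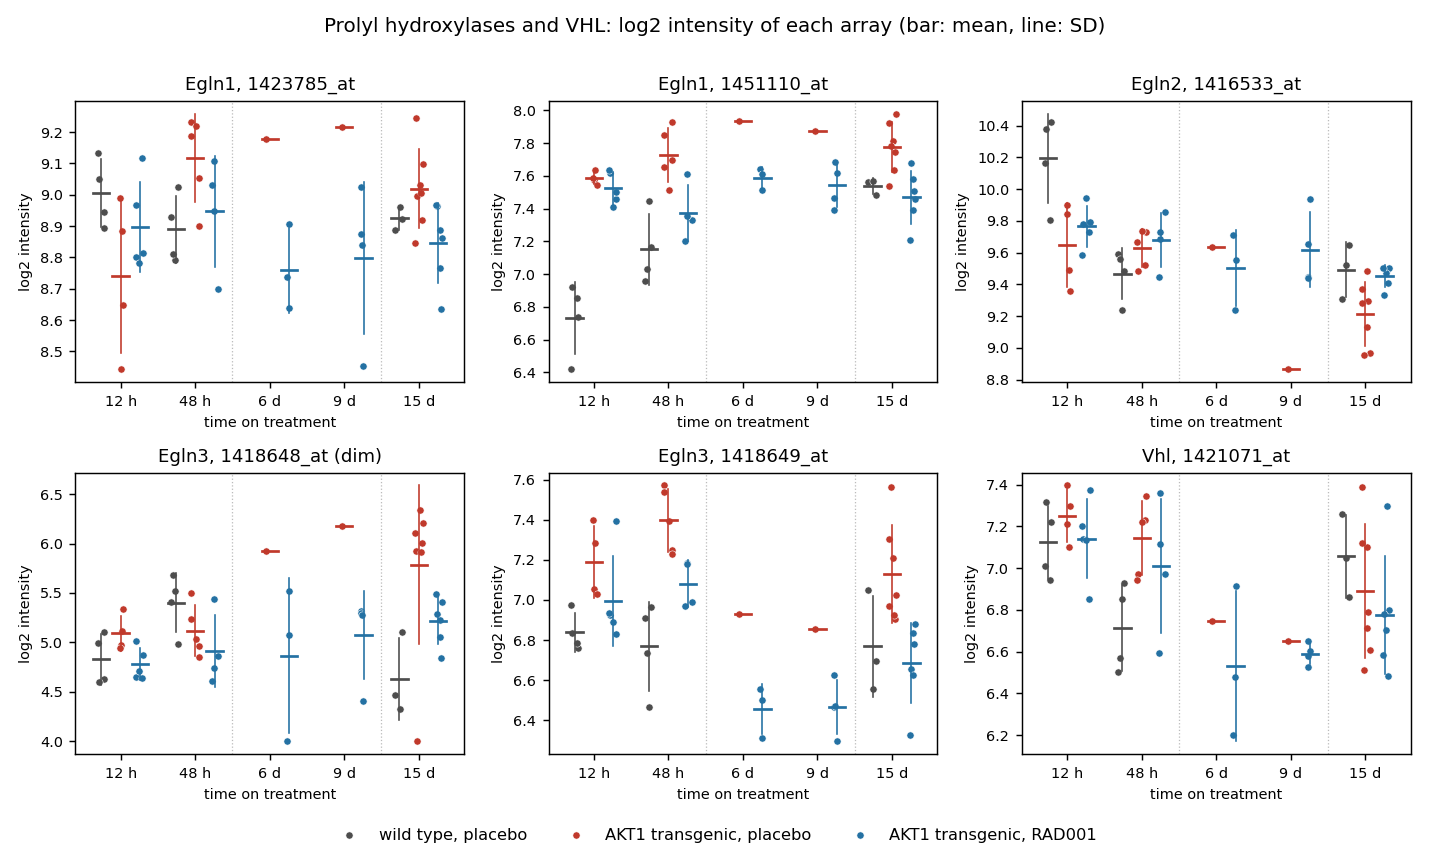
Log2 intensity (values under 16 set to 16) of each array for the prolyl hydroxylases and Vhl, drawn as for the subunits (dim marks a probe set below the filter). Egln1 1451110_at and Egln3 1418649_at are higher on transgenic placebo than on wild type arrays at 12 h and 48 h. The mean of Egln1 1423785_at is lower at 12 h and higher at 48 h, neither called.

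Taken by time, 6 member probe sets were called at 12 h (21.0% of all probe sets tested), 6 at 48 h (25.6%) and 5 at 15 d (21.0%). The test of whether the genotype difference changes with time called 9 of the 13 members, where 21.3% of all probe sets were called. Time alone was called for 6 members in wild type mice (24.5% of all probe sets) and for 8 in transgenic placebo mice (47.9%).

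Under RAD001 1 probe set of Hif3a was lower than under placebo at 48 h, and 1 each of Hif1a, Hif3a, Egln3 and Egln1 at 15 d, all of them among those called higher in transgenic mice. This comparison shares its placebo arrays with that of genotypes, so the opposite signs are not independent of each other. At 12 h none of the 13 member probe sets was called by limma, 3 had an unadjusted p under 0.05, and 1.47% of all probe sets were called. Hif3a 1425428_at then read 277, 357, 385, 345 and 259 under RAD001 against 355 to 518 under placebo, a change of -0.44 (SE 0.16, adjusted p = 0.188). Hif1a 1427418_a_at read 493, 451, 506, 558 and 301 against 534 to 609, a change of -0.30 (SE 0.14, adjusted p = 0.376). All 5 RAD001 arrays lay below the placebo mean for Hif3a and 4 of 5 for Hif1a, and the ranges overlapped in both. Epas1 went the other way, with 128 to 165 under RAD001 against 90.8 to 138, a change of 0.32 (SE 0.13, adjusted p = 0.286). Of its 5 RAD001 arrays, all lay above the placebo mean and 3 above every placebo array.

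The other tested probe sets of Hif3a were not called under RAD001 at 12 h, 48 h or 15 d. At 12 h 1425429_s_at read 180 to 216 under RAD001, above every placebo array (145 to 176), with 0.27 (SE 0.17, adjusted p = 0.599). Its ranges overlapped at 48 h and 15 d, with changes of -0.07 and 0.10. Those of 1421572_at overlapped at all 3 times, with 0.02, 0.35 and 0.12.

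At 48 h 1 member was called, where 3.45% of all probe sets were. Hif3a 1425428_at read 243, 301, 234 and 212 under RAD001, all below the placebo range of 400.5 to 553. The change was -0.92 (SE 0.16, adjusted p = 0.000665), a 1.89-fold drop that was called in all 19 settings run. Egln3 1418649_at read 127, 145.3, 125.4 and 145.1, also below every placebo array, with -0.32 (SE 0.14, adjusted p = 0.209). Egln1 1451110_at read 160.7, 195.9, 147.3 and 163.4 against 183 to 243, with -0.35 (SE 0.11, adjusted p = 0.0613). Hif1a 1427418_a_at read 406, 372, 415.5 and 354 against 355 to 530, with -0.10 (SE 0.14, adjusted p = 0.823). Hif1a thus overlapped its placebo range almost wholly at this time. In the same comparison 2 of 9 smooth muscle, 2 of 10 fibroblast and 2 of 7 basal markers were called higher (Cnn1 1.07, Krt5 0.88). Of 8 luminal markers 1 was called lower (Krt8 -0.67). Basal Itgb4 (-0.825) and Itga6 (-0.04) and luminal Cldn4 (0.78) and Pbsn (0.14) went the other way, none of them called. The summed smooth muscle level was 7430 to 10900 under RAD001 against 5150 to 7110, and the part of these markers in the change of Hif3a was not tested.

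At 15 d 4 members were called, all lower, against 5.53% of all probe sets (2.42% higher and 3.10% lower). Hif1a 1427418_a_at ran from 361 over a median of 441 to 562 under RAD001, below the placebo range of 636 to 751, and fell by 0.63 on the log2 scale (SE 0.12, adjusted p = 0.000701). Hif3a 1425428_at ran from 134 over 213 to 237, below 243 to 359, and fell by 0.60 (SE 0.13, adjusted p = 0.00442). Egln3 1418649_at ran from 80.4 over 105 to 118, just below 120 to 189, and fell by 0.44 (SE 0.11, adjusted p = 0.0129). These 3 had no array in common range with placebo, and the share of all probe sets that separate in this way was not counted. Egln1 1451110_at ran from 148 over 179 to 205 and overlapped the placebo range of 186 to 253, with a fall by 0.30 (SE 0.091, adjusted p = 0.0394) that was lost without placebo replicate 1, 2, 4 or 9 or RAD001 replicate 1, 2, 4 or 7 (0.0504 to 0.119). Hif1a 1416035_at read 97.1 to 186 against 144 to 280 and was not called (-0.45, SE 0.17, adjusted p = 0.114). Epas1, Arnt, Egln2 and Vhl were not called, with changes from -0.12 for Vhl to 0.24 for Egln2.

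Within set B the 15 d changes were -0.53 for Hif1a 1427418_a_at (adjusted p = 0.0176), -0.66 for Hif3a (0.00681), -0.48 for Egln3 (0.0299) and -0.24 for Egln1 (0.22). Within set A, with 2 arrays a group, they were -0.82, -0.51, -0.40 and -0.44, and none passed. Fitted on the 15 d placebo and RAD001 groups alone, only Hif1a 1427418_a_at kept its call (adjusted p = 0.00829), while Hif3a had an adjusted p of 0.0546, Egln3 of 0.11 and Egln1 of 0.139. In the same comparison 4 of 9 smooth muscle, 2 of 10 fibroblast and 2 of 7 basal markers were called higher and 1 of 8 luminal markers lower under RAD001, and their part in the members' changes was not tested. The test of whether the RAD001 change differs between 12 h, 48 h and 15 d called no member (2 had an unadjusted p under 0.05) and 0.398% of all probe sets.

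**Figure D3:**
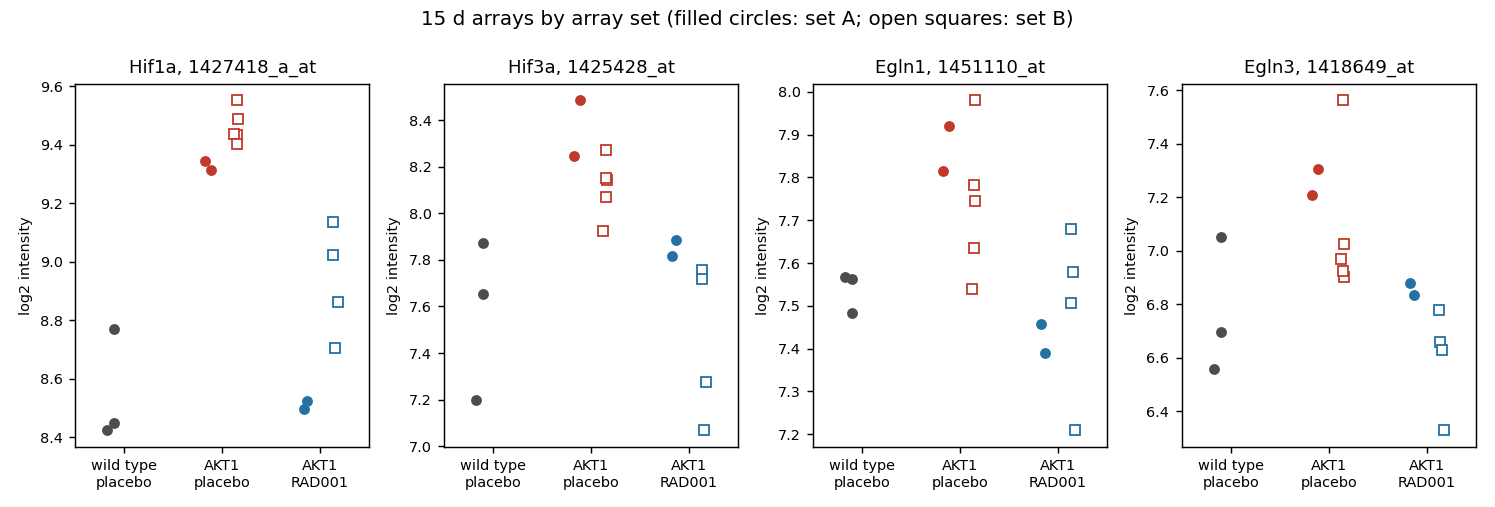
Log2 intensity of the 15 d arrays for 4 probe sets, by group and by array set along the first principal component. Filled circles are set A and open squares set B, and all 3 wild type arrays are in set A. Hif1a, Hif3a and Egln3 are lower under RAD001 than under placebo within each set.

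At 6 d and 9 d no member of 12 was called by limma, 5 had an unadjusted p under 0.05, and 0.803% of all probe sets were called. Hif1a 1427418_a_at read 899 and 957 on the lone placebo arrays of 6 d and 9 d. Under RAD001 it read 361, 631 and 549.5 at 6 d and 694, 630.2, 471 and 632 at 9 d, all below both placebo arrays, a change of -0.76 (SE 0.22, adjusted p = 0.25). Egln3 1418649_at read 122 and 116 under placebo and from 78.6 to 98.9 under RAD001, with -0.43 (SE 0.17, adjusted p = 0.441). Egln1 read 245 and 235 on 1451110_at under placebo and 168 to 206 under RAD001 (-0.34, SE 0.14), and 579 and 594 against 350.4 to 520 on 1423785_at (-0.42, SE 0.16). Hif1a 1448183_a_at, which passed the filter here, read 139.3 and 158.1 under placebo and 71.4 to 107.8 under RAD001 (-0.68, adjusted p = 0.293). In each of these probe sets every RAD001 array lay below both placebo arrays. The share of all probe sets that separate in this way was not counted. With 1 placebo array a day the spread of placebo comes from the other groups. Hif3a 1425428_at read 242 and 223 under placebo and from 114 to 223 under RAD001 (-0.58, SE 0.30, adjusted p = 0.614).

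**Figure D4:**
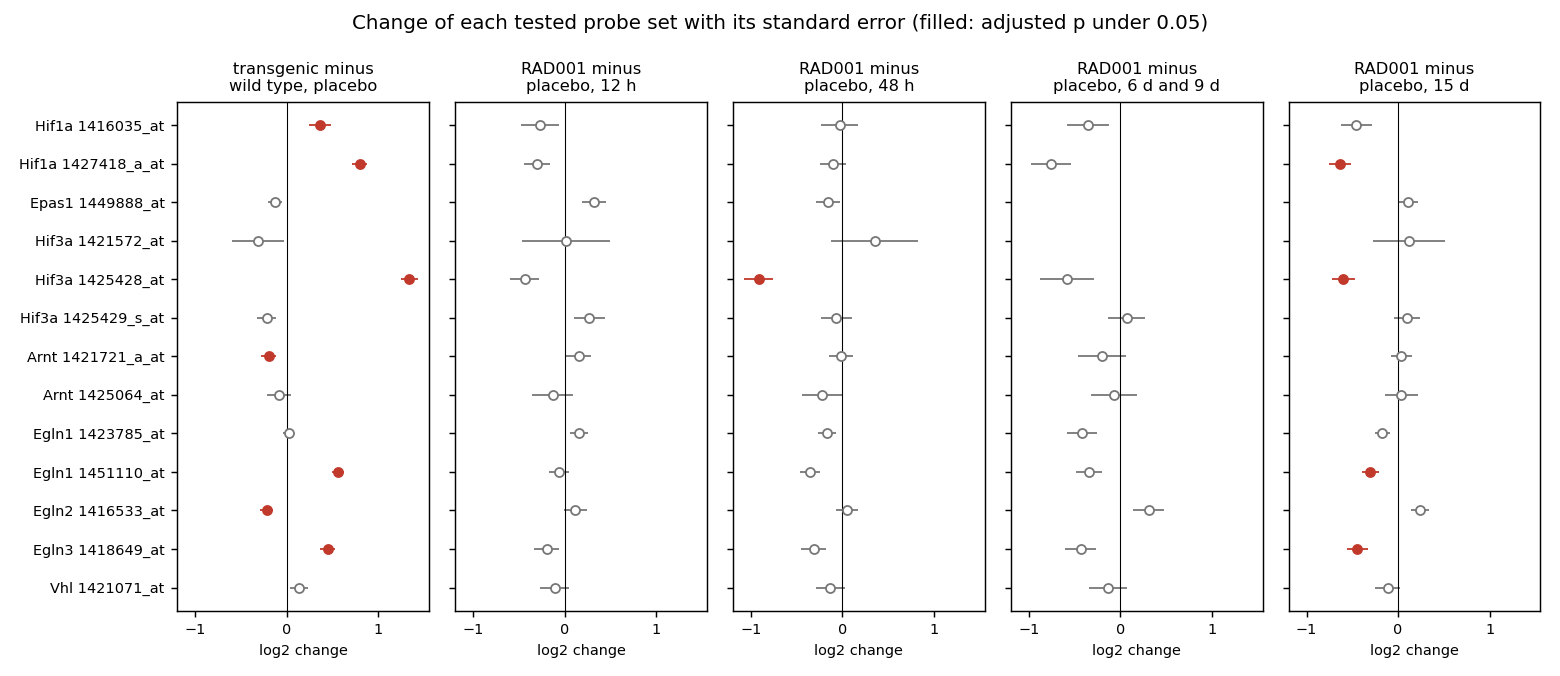
Log2 change of each tested member probe set with its standard error, for the averaged genotype difference and for RAD001 at each time. Filled points have an adjusted p under 0.05. The probe sets with the largest genotype rises, Hif3a 1425428_at (1.34) and Hif1a 1427418_a_at (0.80), are among those that fell under RAD001 at 15 d, by 0.60 and 0.63.

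After RAD001 the transgenic prostates still differed from wild type placebo in 3 of 13 member probe sets, averaged over 12 h, 48 h and 15 d. Of all probe sets tested 22.2% were called, so the count of members is near that share. Hif3a 1425428_at was 0.69 higher (SE 0.094, adjusted p = 1.56e-06), Hif1a 1427418_a_at 0.45 higher (SE 0.084, adjusted p = 0.000139) and Egln1 1451110_at 0.32 higher (SE 0.065, adjusted p = 0.000489). Their placebo differences from the same wild type arrays were 1.34, 0.80 and 0.56. Egln3 differed by 0.13 (SE 0.081, adjusted p = 0.28). The other tested probe sets of Hif3a, Hif1a and Egln1 were not called. They differed by -0.12 (Hif3a 1425429_s_at), -0.15 (Hif3a 1421572_at), 0.11 (Hif1a 1416035_at) and -0.04 (Egln1 1423785_at).

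Other genes of the pathway were taken as lists. The lists were chosen with earlier results of these data known, so their counts are not an independent test. Of 9 tested partners of HIF and of the VHL complex, 3 were called higher and 2 lower between genotypes, with a median of -0.14 against -0.04 over all probe sets tested, of which 15.1% were called higher and 18.4% lower, so the count of lower partners is near that share. They included Elob (0.33, SE 0.051), an elongin of the VHL complex, and Hsp90aa1 (0.55, SE 0.091), a chaperone of HIF-1alpha, both higher, and Siah1a (-0.46, SE 0.082), a ligase for the hydroxylases, and the coactivator gene Crebbp (-0.21, SE 0.061), both lower. Under RAD001 limma called 0 of these 9 at 12 h (3 had an unadjusted p under 0.05) and 0 at 48 h (0 unadjusted), and Hsp90aa1 fell at 15 d (-0.52, SE 0.13, adjusted p = 0.0107). Of 11 tested HIF targets in glycolysis, 7 were called higher and 0 lower in transgenic mice (median 0.98). Of 21 tested HIF targets outside glycolysis, 11 were called higher and 0 lower in transgenic mice (median 0.40). Bnip3, a mitophagy receptor, was up by 1.88 (SE 0.11), Ero1a, an oxidase of the endoplasmic reticulum, by 1.85 (SE 0.18) and Pdk1, which limits entry of pyruvate into mitochondria, by 1.60 (SE 0.14).

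Genes of these target lists were called lower under RAD001 at each time, also at 12 h and 48 h. Since the lists were chosen with earlier results known, their counts beside the shares over all probe sets are a description only. At 12 h 1 of 21 targets outside glycolysis was called, Bnip3 (-0.79, SE 0.18, adjusted p = 0.0206), and 5 of 11 in glycolysis, all lower, where 1.47% of all probe sets were called. At 48 h the counts were 5 of 21 and 7 of 11, all lower (3.45% of all probe sets called), with Bnip3 at -1.41 (SE 0.18) and Plod2, a collagen hydroxylase, at -0.90 (SE 0.13). At 15 d 6 of 21 were lower and 1 was higher, and 6 of 11 were lower (5.53% called). At 6 d and 9 d 6 of 19 and 9 of 10 were lower (0.803% called), with Ddit4, an inhibitor of mTOR, at -2.67 (SE 0.15) and the glycolytic gene Pgk1 at -1.66 (SE 0.074). The glycolysis list's median was -0.65, -0.84, -0.66 and -1.17 at 12 h, 48 h, 15 d and 6 d with 9 d, against medians over all probe sets tested of 0.021, 0.0037, 0.0171 and -0.0152. That of the targets outside glycolysis was nearer 0, at -0.23, -0.41, -0.23 and -0.52. Members' medians were -0.06, -0.13, -0.12 and -0.35 in the same order. They run over all tested member probe sets, whereas a list takes 1 probe set per gene, so the measures are not alike.

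The genes whose 9 group means in the larger table ran most like a member's were named by Pearson r, as a description of means that share arrays and scaling. For Hif3a 1425428_at they were Cd24a (0.991), Lgals3bp (0.98) and Gusb (0.98). For Hif1a 1427418_a_at they were Lipa (0.974), Ipo9 (0.97) and Fyttd1 (0.968), and for Egln3 1418649_at Cd24a (0.964), Slc27a4 (0.961) and Plat (0.958). No gene came closer than 0.872 (Seh1l) to Egln1 1423785_at.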

How the data were processed

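Biotin-labelled RNA was hybridised to Affymetrix arrays, per the labels' protocols. The authors deposited linear probe set intensities in 2 tables, whose scaling the sources used here do not state, and array medians lay between 91.6 and 110.4. No array pair was identical (highest r 0.983). Before taking log2, a floor of 16 was applied. Probe sets with a mean log2 below the 40th percentile of their table (6.20 and 6.19) were left out, and 13574 and 13576 were tested, each apart. Genes were named from probes with 1 symbol (20380 of 22626; 691 had several, 1555 none). Limma 3.58.1 under R 4.3.3 fitted 1 mean per group and moderated the spread along mean intensity; calls have a Benjamini-Hochberg adjusted p under 0.05 over all probe sets tested. Lists use each gene's brightest probe set. Averages weight 12 h, 48 h and 15 d, or 6 d and 9 d, equally. The procedure was tested on simulated data. Members and lists were chosen with earlier results of these data known. All member probe sets were named, for each pathway list up to 4 genes with the smallest p per comparison, and the 3 genes most like each member. Replicate numbers were not taken to pair arrays. Deviations of same-numbered arrays correlated between -0.245 and 0.507 over 22 pairs, and medians for other numbers lay between -0.0215 and 0.0186. This range does not exclude a pairing. Alternatives changed the filter, floor, scaling, samples and design.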

Additional observations from a re-analysis of the deposited data

Results flagged for a closer look

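Single arrays stood apart from the rest of their group in 6 of the 116 groups of 4 to 10 arrays looked at, where chance gives about 1 in 20. Hif3a 1421572_at was listed at 0 on transgenic placebo replicate 1 of 48 h (next lowest 87.8), on transgenic placebo replicate 8 of 15 d (53.7) and on RAD001 replicate 7 of 15 d (64.7). Egln3 1418649_at read 168.1 on RAD001 replicate 3 of 12 h, next to 122.4 on the nearest array. Arnt 1425064_at read 118.8 on wild type replicate 2 of 12 h against 90.4. Hif1a 1427418_a_at read 609.1 on transgenic placebo replicate 4 of 12 h against 543.7.

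The genotype difference changed with time in 9 member probe sets by limma's F-test. The adjusted p was 0.00114 for Hif1a 1416035_at, 0.00195 for Hif3a 1425428_at, 0.0112 for Epas1 1449888_at, 0.0136 for Egln2 1416533_at and 0.0171 for Hif3a 1425429_s_at. It was 0.0189 for Egln1 1451110_at, 0.032 for Hif1a 1427418_a_at, 0.0354 for Egln1 1423785_at and 0.0425 for Arnt 1421721_a_at. The split of arrays along the first principal component runs across the times of wild type mice, and its part in these tests cannot be told apart.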

How the results depend on the processing

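No member changed sign between settings in a comparison where it was called. Members called between genotypes on average (7) were 4 with the filter at the 60th percentile, from 12 h and 48 h alone, with the 15 d array set as a block and with set A alone. At 48 h (6) they were 3 at the 60th percentile. At 15 d (5) they were 3 at the 60th percentile, with 1 probe set per gene and without arrays with over 500 exact zeros, 2 with the array set as a block or set A alone, and 1 in a fit of the compared groups only. Under RAD001 at 48 h (1) they were 2 at the 60th percentile, under quantile normalisation and without arrays with many zeros. Under RAD001 at 15 d (4) they were 2 with array weights, 1 with the compared groups only and 0 with set A alone. The genotype by time test (9) gave 5 with set A alone, time in wild type (6) gave 3 with 1 probe set per gene, and time in transgenic mice (8) gave 5 at the 60th percentile, 4 with the set block and 3 with set A alone. Settings with an array set were chosen after seeing the data, those with set A alone hold fewer arrays, and the cause of the other changes was not tested.

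Whether replicate numbers pair arrays was not established. With the replicate number as a block, members called were 2 for genotype at 15 d, 2 for RAD001 at 48 h, 2 for RAD001 at 15 d and 5 for genotype by time. Leaving out 1 array gave 5 to 8 for genotype on average, 5 to 7 at 12 h, 4 to 6 at 48 h and 2 to 5 at 15 d. It gave 0 for RAD001 at 12 h, 1 to 2 at 48 h, 3 to 4 at 15 d, 0 at 6 d and 9 d, 3 for treated against wild type, 4 to 9 for genotype by time, 0 for RAD001 by time, 4 to 7 for time in wild type and 7 to 9 in transgenic mice. Single arrays moved the members called by over 1.5 times: they dropped for genotype at 15 d without wild type replicate 1 (3) or 3 (2) of 15 d, and for genotype by time without wild type replicate 2 of 48 h (5) or 1 of 15 d (4), and rose to 2 for RAD001 at 48 h without placebo replicate 5 or RAD001 replicate 2. A lone placebo array of 6 d or 9 d could not be left out of the averaged contrast, so each day's contrast was also taken apart, from the same joint fit. The number of arrays limits precision, most at 6 d and 9 d.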
